A study of Macaca mulatta with 18 samples.

Results

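Cytosolic ribosomal protein genes encode the proteins that, with ribosomal RNA, build the large and the small subunit of the ribosome of the cytoplasm. They were taken here by symbol, as RPL or RPS followed by a number and, where present, the letter A, X or L, together with RPLP0, RPLP1, RPLP2 and RPSA. Of 30245 genes in the tables of all 3 brain regions, 77 carried such a symbol. Where a symbol stood at several loci, the locus with the highest summed FPKM was used, which left 65 genes, 39 of the RPL and 26 of the RPS series. FPKM is fragments per kilobase, a level set relative to the length of a gene and the size of the library.

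Rhesus macaques (Macaca mulatta), 3 of Chinese and 3 of Indian geographic origin, each gave samples of striatum (STR), cerebellum (CER) and prefrontal cortex (PFC), or 18 libraries in all. Monkeys of Indian origin were aged 7.5, 15 and 16 years. Those of Chinese origin were aged 10.5, 11 and 11.5 years. No treatment differed between the groups, every animal was fed the same stock diet, and per the study's methods the origins were matched for age and sex. The Indian-origin animals had been born at the primate center that supplied the tissue, whereas the Chinese-origin animals came there as young adults, so ancestry and early life cannot be told apart. The regions come from the same animals and are not independent samples. The 6 libraries of a region were run in a single lane, and each region has its own table and normalization, so that region and lane cannot be told apart. For each gene a table holds 1 FPKM per origin, the authors' pooled value over 3 monkeys. Values per monkey and read numbers were not analysed, so the spread between animals is not known here and every ratio below is a description without a test. A ratio is given as log2 of Chinese over Indian FPKM after 0.1 was added to each, and a gene is counted as past the limit where the ratio exceeds 1.5-fold.

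Ribosomal proteins of the large subunit surround the centre where peptide bonds form and the tunnel through which the new chain leaves, and those of the small subunit surround the site where the messenger RNA is read. A ribosome holds a single copy of most of them, and the proteins of the stalk (RPLP0, RPLP1 and RPLP2) recruit the elongation factors. The messenger RNAs of these proteins begin with a tract of pyrimidines through which the mTOR pathway, acting by way of LARP1, controls their translation together. In neurons ribosomes are found in the cell body and in dendrites, where proteins are made near synapses. These genes have many processed copies elsewhere in primate genomes, so that reads of a gene and of its copies can be hard to separate.

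The tissue labels were checked on marker lists. Markers of cerebellar granule and Purkinje cells summed to 5341 FPKM in Chinese and 5430 in Indian CER, against 270 to 370 in the other regions. Striatal projection neuron markers summed to 3838 and 3494 in STR and to at most 308 elsewhere. Markers of cortical excitatory neurons summed to 1085 and 976 in PFC. In STR that same list summed to 222 FPKM in Chinese against 99.0 in Indian monkeys, with 7 of 8 members past the 1.5-fold limit, led by the vesicular glutamate transporter SLC17A7 at 59.6 against 12.2 FPKM. In CER the choroid plexus list summed to 644 against 2076 FPKM, mostly TTR, the thyroid hormone carrier, at 640 against 2060. In these bulk tissues fewer cells of a type and less RNA per cell cannot be told apart, and the part of these cell types in the ribosomal protein values was not tested.

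Ribosomal protein genes were among the most abundant in all 6 pooled values. With a mean FPKM of at least 1, 61 of the 65 genes were kept, of 17651 genes in all. Their median was 254 FPKM in Chinese and 206 in Indian PFC, 256 and 255 in CER, and 318 and 293 in STR. The median of all genes was between 11.3 and 17.1 FPKM, and the median ribosomal protein gene stood between percentiles 96.1 and 97.3. Between 24 and 33 of the 61 were among the 500 most abundant genes of a column.

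Levels differed widely among genes of proteins that the ribosome mostly holds in equal number. In Chinese PFC the highest gene, a short locus named RPL13A that is described below, was 424 times the lowest, the paralogue RPL39L. Without that locus the range was 147-fold, and without the paralogues as well it was 87.5-fold. In the full set of 61 the upper quartile was 3.79 times the lower. RPS21, a small-subunit protein, had 1433 FPKM in Chinese and 1177 in Indian PFC, 1061 and 991 in CER, and 1956 and 1830 in STR. RPL35A, a large-subunit protein mutated in some families with Diamond-Blackfan anaemia, had 1001 and 837 FPKM in PFC, 1229.6 and 1133 in CER, and 1401 and 1361 in STR. These RPL35A values come from a locus of 333 bases without a symbol in the reference annotation. The other locus with that symbol had 0 FPKM in all 6 values. RPS21 and RPL35A were both highest in STR in either origin. RPS27, a small-subunit protein with a zinc finger, had 611 and 516 FPKM in PFC, 603 and 562 in CER, and 1044 and 1021 in STR. The genes ranked next by mean FPKM were RPL27A, RPL14, RPS28, RPS14, RPL23 and RPS7, each between 362 and 808 FPKM in all 6 values.

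**Figure D1:**
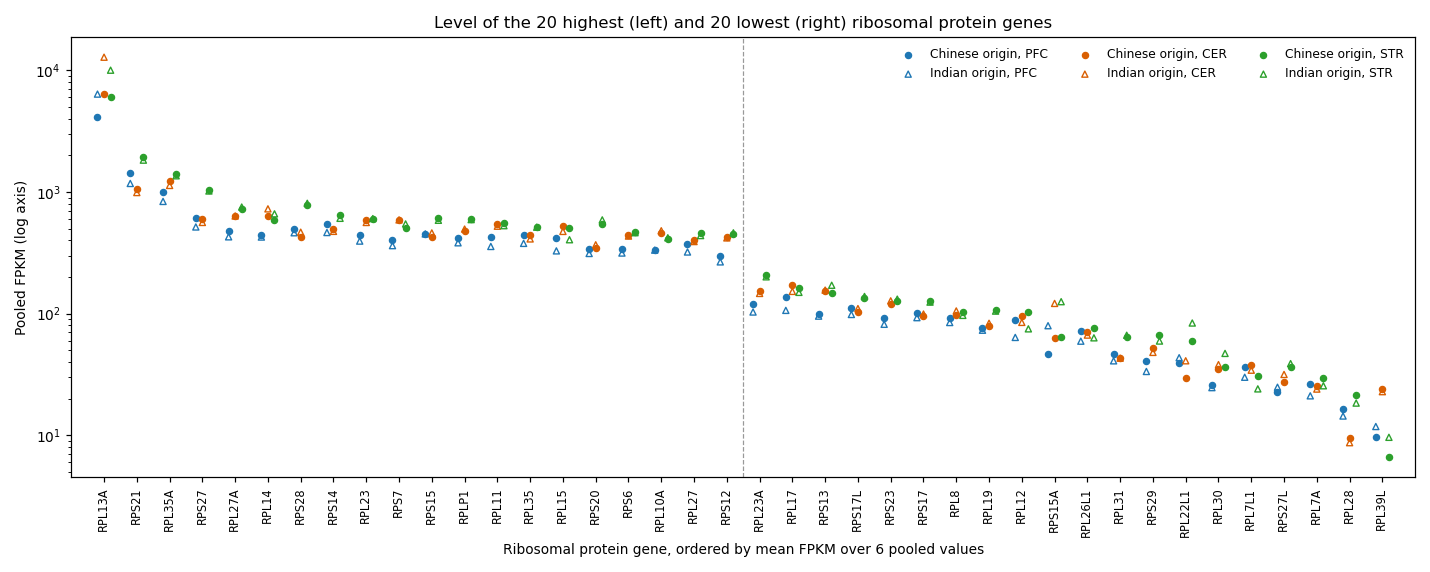
Pooled FPKM (log axis) of the 20 highest and the 20 lowest ribosomal protein genes by mean FPKM, among the 61 with a mean of at least 1, ordered by that mean. Filled circles are Chinese-origin and open triangles Indian-origin monkeys, coloured by region, with no error bars because each point is a single pooled value. The locus named RPL13A stands far above the rest at 4126 to 12851 FPKM, and RPL39L and RPL28 end the order.

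The low end held paralogues known from other tissues and a few short loci, but also RPL28 and RPL7A at longer loci. RPL28, at a locus of 3926 bases, had 8.69 to 21.6 FPKM. RPL7A, at a chosen locus of 2976 bases, had 21.1 to 29.4 FPKM. RPL3L, the form of RPL3 known from striated muscle, had 0.0408 to 0.164 FPKM, and RPL10L, the form of RPL10 known from testis, had 0 to 0.183 FPKM. RPL24 had 0.0616 to 0.0971 FPKM at the locus that carries its symbol, and RPS24 was listed at 0 in all 6 columns at a locus on an unplaced scaffold. For both, the reference annotation names other loci that were abundant. The locus it names RPL24 (ENSMMUG00000015059, mmul1 chr2:21870467-21875827) had 149 and 127 FPKM in PFC, 188 and 188 in CER, and 181 and 188 in STR. Of the loci it names RPS24, the higher one, on chromosome X, had between 302 and 421 FPKM. The low values of RPL24 and RPS24 describe only the loci that carry these symbols in the files. RPL30 had only 24.6 to 47.1 FPKM at its chosen locus of 348 bases, whereas another locus that the reference names RPL30 had 1043 to 1754 FPKM.

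Symbols and loci did not map simply. Of the 65 chosen loci, 31 had the same symbol in the reference annotation, 33 had none there, and 1, the RPS15A locus, had another. The chosen loci that spanned under 1000 bases numbered 22. A further 28 loci were named as ribosomal protein genes by the reference annotation only, 12 of them with symbols already in the set and 16 with 14 new symbols, among them RPL5, RPL10, RPL38, RPS3A and RPSA. RPL38, a large-subunit protein needed for normal skeletal patterning in the mouse, had 2810 and 2379 FPKM in PFC, 2693 and 2510 in CER, and 3185 and 2970 in STR, above every gene of the set but RPL13A. The 16 loci with new symbols had median log2 ratios of the origins of 0.16, -0.02 and 0.02 in PFC, CER and STR.

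RPL13A, a large-subunit protein that in human cells also leaves the ribosome to silence inflammatory messages after interferon-gamma, was tried in the study as a reference gene for RT-PCR. The file gives its symbol to a locus of 93 bases on chromosome 7 (ENSMMUG00000011005, mmul1 chr7:108941800-108941892) and to a locus of 4665 bases on chromosome 19 (ENSMMUG00000007551, mmul1 chr19:55749375-55754039). Only the chromosome 19 locus is named RPL13A by the reference annotation, which gives the other no symbol. The short locus had 4126 FPKM in Chinese and 6390 in Indian PFC, 6453 and 12851 in CER, and 6042 and 10049 in STR. The Chinese value was lower in each region, with log2 ratios of -0.63, -0.99 and -0.73.

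The chromosome 19 locus did not share that difference. It had 227 and 198 FPKM in PFC, 371 and 366 in CER, and 304 and 289 in STR, with log2 ratios of 0.20, 0.02 and 0.07. The short locus averaged 26.2 times its level. Reads in this study were 50 bases long, so few start positions fit within 93 bases, and the FPKM of such a locus rests on a very small length. Of the 17651 genes kept, 454 had a locus under 100 bases, and of these 23.8% were past the limit lower and 24% higher in PFC, against 2.95% and 5.98% of the 15090 genes with 1000 bases or more. The part of locus length in the RPL13A values was not tested.

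With and without this locus the summed levels gave different directions. All 65 genes summed to 20492 FPKM in Chinese and 20965 in Indian PFC, 24623 and 30966 in CER, and 28041 and 31724 in STR, and the short RPL13A locus made up 20.1% to 41.5% of a sum. Without it the sums were 16366 and 14575 in PFC, 18171 and 18115 in CER, and 21999 and 21675 in STR. The log2 ratio of the sums went from -0.03 to 0.17 in PFC, from -0.33 to 0.0045 in CER, and from -0.18 to 0.02 in STR.

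Of the 12 symbols at a pair of loci, RPL13A included, 8 had both at a mean FPKM of at least 1, and 7 of these are other than RPL13A. Copies of a symbol can share reads, so these pairs are uncertain as separate measurements. RPL12, whose protein lies at the base of the stalk, had log2 ratios of 0.47, 0.17 and 0.47 in PFC, CER and STR at its chosen locus. At the other, which the reference names RPL12, they were 0.32, 0.04 and 0.30. RPS13 had 0.05, -0.02 and -0.21 at one locus and 0.06, -0.04 and -0.20 at the other. Over the 7 symbols the ratios of the paired loci differed by at most 0.18, with a median of 0.06. The RPL13A loci differed by 0.80 to 1.02. Loci that only the reference names are outside these pairs, and some lay further apart. RPL15 had 0.36, 0.15 and 0.31 at its chosen locus and 0.10, -0.08 and 0.0028 at the reference-named one. The 2 RPS25 loci were close, at 0.22, 0.08 and -0.04 against 0.22, 0.05 and -0.06.

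**Figure D2:**
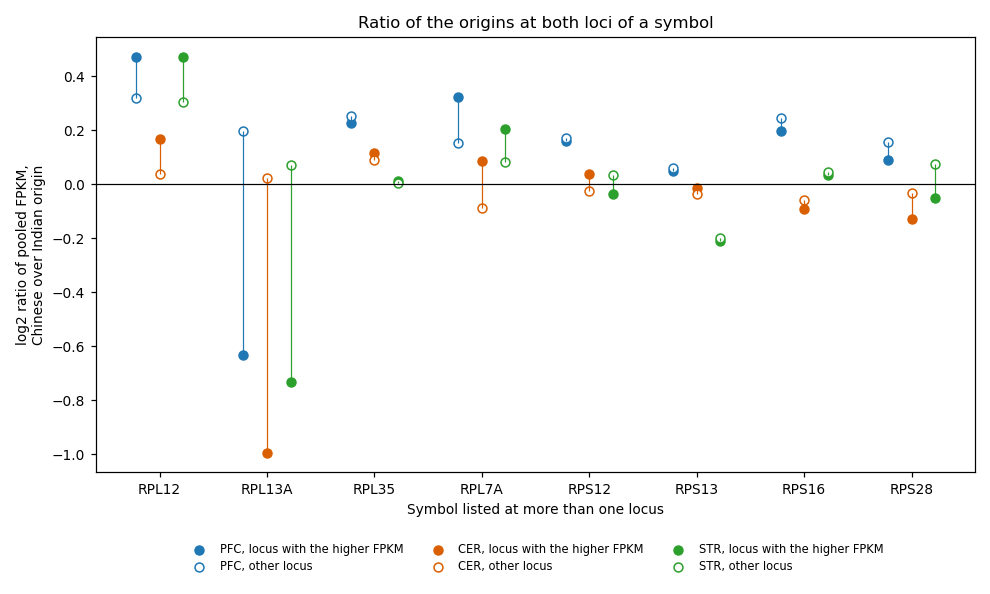
Log2 ratio of pooled FPKM, Chinese over Indian origin, at both loci of the 8 symbols with a pair of loci at a mean FPKM of at least 1. Filled points are the locus with the higher FPKM, open points the other, and colours give the region. The RPL13A loci lie 0.80 to 1.02 apart, and those of the 7 other symbols at most 0.18.

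The comparison of the origins asked whether monkeys of Chinese and Indian ancestry, known to differ genetically, differ in gene expression in each region. No ribosomal protein gene was past the 1.5-fold limit with a higher value in Chinese monkeys in any region, where 7.21%, 6.93% and 17.6% of all genes were (PFC, CER and STR). Past the limit with a lower value were 2 of 61 genes in each region, against 4.32%, 4.90% and 3.44% of all genes, a share near the background. They were RPL13A and RPS15A in all 3 regions. Of the 3456 genes with a mean of 50 FPKM or more, 152, 139 and 370 were past the limit higher and 105, 90 and 89 lower. Setting each column to the same total FPKM shifts all genes of a column by a single factor. On that scale 59, 58 and 57 ribosomal protein genes were past the limit higher, against 95.5%, 93.1% and 96.0% of all genes, and 0 were lower, against 2.37%, 2.37% and 2.02%. The mitochondrial genome made up 39.6% to 62.4% of that total in Chinese and 70.4% to 84.1% in Indian columns. As given in the files, the median log2 ratio of the 61 genes was 0.16, -0.00 and 0.02.

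All genes together did not centre on 0. Over 17651 genes the median log2 ratio was 0.18, 0.09 and 0.29 in PFC, CER and STR, so the median ribosomal protein gene stood 0.02, 0.09 and 0.27 below the median gene. Below the median of all genes were 38 (62.3%), 48 (78.7%) and 57 (93.4%) of the 61 genes in the same order of regions, where 50.0% of all genes are by definition. In STR the genes thus had nearly equal FPKM in both origins while the median gene was 1.22-fold higher in Chinese monkeys. Once the median of all genes was subtracted, 5 ribosomal protein genes in STR were past the limit with a lower Chinese value, namely RPL13A, RPS15A, RPL22L1, RPL30 and RPL39L, against 4.83% of all genes after the same subtraction. Genes with a mean of 50 FPKM or more, 3456 in number, had medians of 0.19, 0.07 and 0.24. Each was above that of the ribosomal protein genes, at 0.16, -0.0019 and 0.02. In STR the cortical marker list was higher in Chinese monkeys, as described above. Microglia markers summed to 206 against 154 FPKM there and endothelial markers to 50.9 against 36.6, and in PFC to 99.9 against 72.3 and to 39.4 against 28.4. Blood cell markers summed to 89.6 against 60 in PFC and 89.1 against 69.6 in STR. In CER microglia markers went the other way, at 62.9 against 66.4, while endothelial markers summed to 26 against 20.8 and blood cell markers to 84.2 against 77.6. Astrocyte markers summed to 1444 against 1234 in PFC, 1474 in both origins in CER, and 1856 against 1441 in STR. Oligodendrocyte markers summed to 7008 against 6154 in PFC, 3817 against 4072 in CER, and 12651 against 11479 in STR. The part of these cell types in the origin ratios was not tested.

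The ratios of ribosomal protein genes were close together. A log2 ratio within 0.32 of 0 was seen in PFC, CER and STR for 54 (88.5%), 58 (95.1%) and 53 (86.9%) of the 61 genes. The share was 73.1%, 77.3% and 49.7% over all genes, and 82.9%, 87.9% and 61.5% among genes of 50 FPKM or more. Such shares measure nearness to 0 and not spread alone, as the median of all genes in STR was 0.29. The interquartile range of the ribosomal protein genes was 0.15, 0.18 and 0.17 on the log2 scale, against 0.24, 0.24 and 0.38 over all genes. Among genes of 50 FPKM or more it was 0.16, 0.17 and 0.31, so in PFC and CER the narrow range was near that of other abundant genes.

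**Figure D3:**
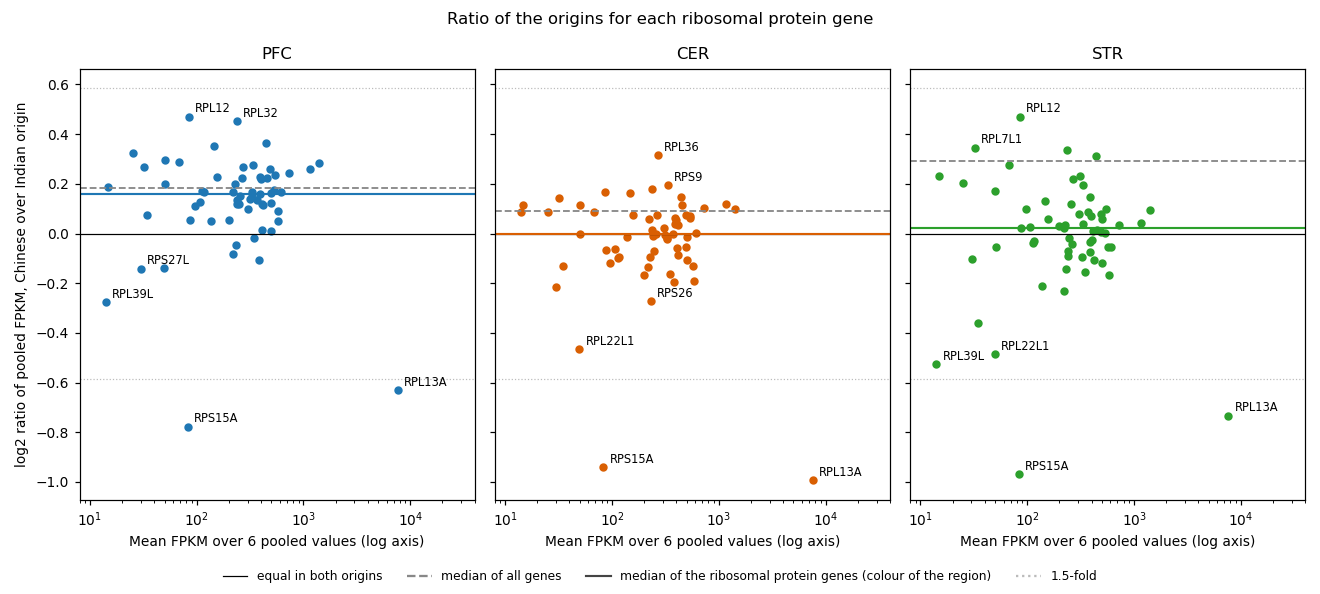
Log2 ratio of pooled FPKM, Chinese over Indian origin, against mean FPKM (log axis) for the 61 ribosomal protein genes in PFC, CER and STR. The solid coloured line is their median, the dashed grey line the median of all genes and the dotted lines 1.5-fold. RPL13A and RPS15A lie below the lower dotted line in every region on the deposited scale, though not with equal total FPKM, and in STR the median of the set (0.02) is well under that of all genes (0.29), a gap that turns the set's median negative once the median gene is set to 0.

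RPS15A, a small-subunit protein, had the lowest ratio in PFC and STR. The row with that symbol (ENSMMUG00000005593, on chromosome 20) had 46.4 FPKM in Chinese and 79.6 in Indian PFC, 63.2 and 121 in CER, and 64.0 and 125 in STR. The Indian value was 1.72-fold, 1.92-fold and 1.96-fold the Chinese. The log2 ratios of -0.78, -0.94 and -0.97 keep their sign with the median gene set to 0, at -0.96, -1.03 and -1.26. The identity of this row is uncertain, because the reference annotation names its identifier ARL6IP1, an endoplasmic reticulum membrane protein, and the authors' software marked its comparison as failed. Another row of the file also carries the symbol ARL6IP1 and had 225 and 183 FPKM in PFC, 404 and 392 in CER, and 185 and 150 in STR, higher in Chinese monkeys in each region. Comparisons of RPL3, RPLP2 and RPS14 carried the same mark.

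The highest ratios belonged to large-subunit genes. RPL12 had 88.4 FPKM in Chinese and 63.7 in Indian PFC, 95.2 and 84.8 in CER, and 104 and 75.01 in STR. That is 1.39-fold higher in PFC and STR and 1.12-fold in CER, and relative to the median gene its log2 ratios were 0.29, 0.08 and 0.18. RPL32 had 268 and 196 FPKM in PFC, 193 and 171 in CER, and 330 and 262 in STR, or log2 ratios of 0.45, 0.18 and 0.34, which became 0.27, 0.09 and 0.04 relative to the median gene. Both genes thus lay within 1.5-fold in every region. RPL15, RPL17 and RPL7A followed in PFC, with log2 ratios of 0.36, 0.35 and 0.32. In CER the highest was RPL36 at 0.31, from 219 and 176 FPKM, then RPS9 at 0.19, and in STR RPL7L1 had 0.35 and RPL15 0.31. The chosen loci of RPL12, RPL15 and RPL36 span 498, 615 and 318 bases, and none has a reference symbol. The locus that the reference names RPL12 had lower ratios of 0.32, 0.04 and 0.30 in PFC, CER and STR. The locus that the reference names RPL15 had only 0.10, -0.08 and 0.0028 in PFC, CER and STR. For RPL17 the reference-named locus had 0.32 in PFC, and the other RPL7A locus had 0.15 there.

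Among the genes with low ratios were several paralogues, which replace or accompany the main form of a protein in some tissues. RPL22L1, the paralogue of RPL22, had 39.5 FPKM in Chinese and 43.4 in Indian PFC, 29.6 and 41.0 in CER, and 59.8 and 83.8 in STR. Its log2 ratios were -0.14, -0.47 and -0.49, while RPL22 itself had 0.12, 0.02 and -0.07 at 188 to 267 FPKM. The pair thus differed in ratio in CER and STR. RPL39L, a paralogue of RPL39 known in the mouse from male germ cells, had 9.73 and 11.8 FPKM in PFC, 24.2 and 22.8 in CER, and 6.64 and 9.62 in STR. Its log2 ratios were -0.28, 0.08 and -0.53. RPL39 itself, at a locus that only the reference names, had -0.04, -0.13 and -0.31 at 99.0 to 209 FPKM, so it too was lower in STR. RPS27L, a paralogue of RPS27 that p53 induces in human cells, had 22.5 to 38.8 FPKM and log2 ratios of -0.14, -0.22 and -0.10, against 0.24, 0.10 and 0.03 for RPS27.

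RPL7L1 and RPL26L1 had ratios on the other side. RPL7L1 had 36.1 and 30.0 FPKM in PFC, 37.8 and 34.3 in CER, and 30.6 and 24.1 in STR, with log2 ratios of 0.27, 0.14 and 0.35 that relative to the median gene came to 0.08, 0.05 and 0.05. RPL26L1 had log2 ratios of 0.29, 0.09 and 0.28 at 59.4 to 76.6 FPKM, against 0.14, -0.01 and -0.09 for RPL26 at 177 to 284 FPKM. Paralogues with low and with high ratios were thus both present. RPL30 had a log2 ratio of -0.36 in STR at its chosen locus and -0.10 at the more abundant locus that the reference names RPL30. RPS26, which lies at the exit of the messenger RNA channel, had -0.27 in CER, from 211 and 255 FPKM.

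The subunits did not separate. Without the paralogues, 32 genes of the large subunit had median log2 ratios of 0.16, 0.00 and 0.03 in PFC, CER and STR, and 24 of the small subunit had 0.16, -0.01 and 0.02. Among the stalk genes, RPLP0 had 186 and 179 FPKM in PFC, 192 and 215 in CER, and 215 and 210 in STR. RPLP1 had 416 and 383 FPKM in PFC, 477 and 496 in CER, and 595 and 593 in STR. RPLP2 had 312 and 283 FPKM in PFC, 227 and 228 in CER, and 447 and 381 in STR. RPLP0 and RPLP1 had ratios between -0.17 and 0.12, and the largest of RPLP2 was 0.23 in STR, below RPL12, the protein at the base, in PFC and STR alike.

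Between regions, ribosomal protein genes were higher in STR than in PFC nearly throughout. Regions were set against each other within each origin, and a gene was counted only where both origins went the same way, with the limit that tables and lanes differ. In 59 of 61 genes (96.7%) STR exceeded PFC in both origins, against 39.0% of all genes. Past the 1.5-fold limit in both origins 11 genes were higher and 0 lower, against 8.45% and 8.68% of all genes. With equal total FPKM in each column 0 were higher and 0 lower, against 4.52% and 16.2% of all genes. The median log2 ratio was 0.42 in Chinese and 0.55 in Indian monkeys, against 0.04 and -0.01 over all genes. Among the 11 genes were RPL22L1, RPL23A and RPL27A of the large subunit and RPS12, RPS19, RPS20, RPS27, RPS27L, RPS28 and RPS29 of the small. RPL23A, which lies at the exit of the peptide tunnel, had 121 FPKM in Chinese and 103 in Indian PFC against 209 and 201 in STR. The exceptions were RPL39L and RPL7L1, lower in STR in both origins.

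Between CER and PFC the median ribosomal protein gene differed less than between STR and PFC on the deposited scale, while single genes were more spread. Past the limit in both origins 4 genes were higher in CER (RPL3, RPL13A, RPL39L and RPS13) and 1 was lower (RPL28), against 24.6% and 13.6% of all genes. With equal total FPKM 29 were higher and 0 lower, against 44.8% and 7.16%. By any amount 46 of 61 (75.4%) were higher in CER in both origins, against 52.9% of all genes. The median log2 ratio was 0.14 in Chinese and 0.35 in Indian monkeys, against 0.15 and 0.23 over all genes. The SD of the log2 ratios over the 61 genes was 0.35 and 0.33, against 0.23 and 0.27 for STR over PFC. RPL3, which reaches close to the peptidyl transferase centre, had 254 and 237 FPKM in PFC and 402 and 395 in CER. Its comparisons of the origins were marked as failed, and without members so marked 3 genes were past the limit higher in CER.

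CER was mostly lower than STR. In 43 of 61 genes (70.5%) CER was lower in both origins, against 30.4% of all genes. Past the limit 1 gene was higher in CER (RPL39L) and 9 were lower (RPL22L1, RPL28, RPL32, RPL36, RPLP2, RPS20, RPS21, RPS27 and RPS28), against 24.4% and 14.6% of all genes. Without the members marked as failed, RPLP2 among them, 8 were lower. With equal total FPKM 24 were higher and 0 lower, against 60.5% and 6.53% of all genes. The median log2 ratio was -0.19 in Chinese and -0.16 in Indian monkeys, against 0.11 and 0.30 over all genes. The 3 comparisons of regions share columns, so they are not independent of each other.

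**Figure D4:**
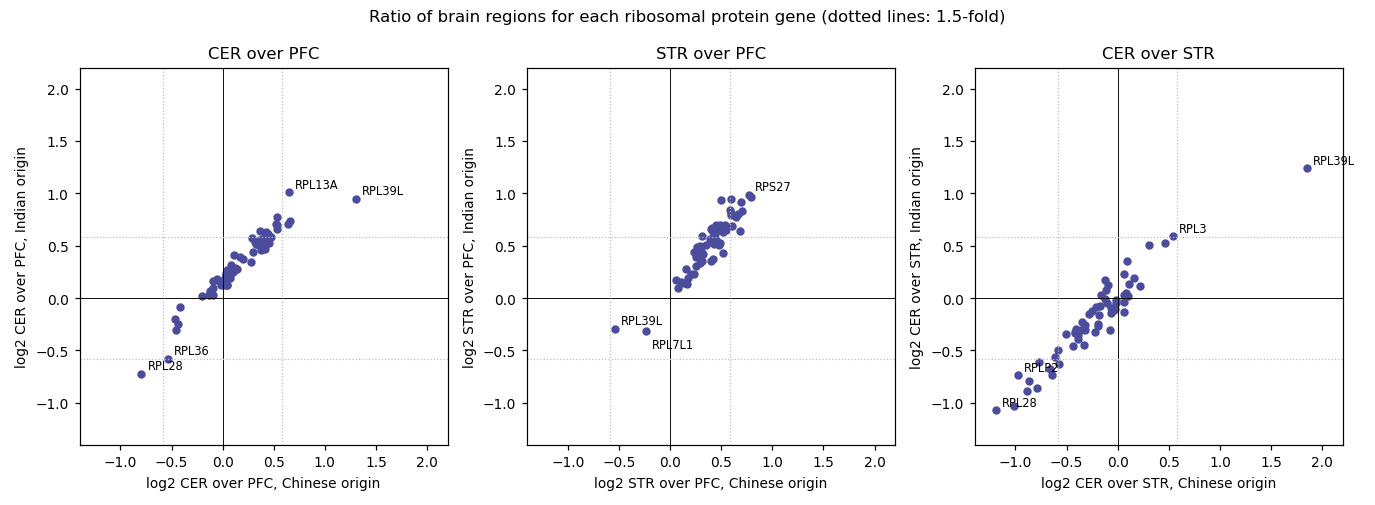
Log2 ratio of regions in Chinese-origin (horizontal) and Indian-origin (vertical) monkeys for the 61 ribosomal protein genes, with CER over PFC, STR over PFC and CER over STR. Each point is a gene and dotted lines mark 1.5-fold. In STR over PFC, 59 genes lie above 0 in both origins, and RPL39L is alone past the limit in CER over STR on the higher side, both on the deposited scale (with equal total FPKM 24 genes are past it there).

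Shares of the ribosomal protein sum, which do not depend on how a table was scaled, were compared as well. The sum includes the short RPL13A locus, whose own share was higher in CER than in PFC. Folds over the median ribosomal protein gene are therefore given beside some of the shares. RPL39L made up 0.0983% of the sum in Chinese and 0.0737% in Indian CER, against 0.0237% and 0.0303% in STR and 0.0475% and 0.0563% in PFC. Its share in CER was thus 4.15-fold and 2.43-fold that in STR. The RPL39L locus spans 156 bases and has no symbol in the reference annotation, and of 764 kept genes with 100 to 200 bases 20.5% were past the origin limit lower and 22.3% higher in PFC. The part of its length in these values was not tested. RPL28, a large-subunit protein, had 16.4 and 14.4 FPKM in PFC, 9.40 and 8.69 in CER, and 21.6 and 18.4 in STR. Its share in PFC was 2.09-fold in Chinese and 2.45-fold in Indian monkeys that in CER. Relative to the median ribosomal protein gene the folds were 1.75 and 2.05. RPL36, RPL32, RPLP2 and RPS21 also had lower shares in CER than in PFC, by 1.62-fold to 2.21-fold, or by 1.36-fold to 1.86-fold relative to the median ribosomal protein gene. RPL3 and RPL4, whose proteins line the inner part of the large subunit and the tunnel, had higher shares in CER than in STR, by 1.54-fold to 1.65-fold for RPL3 and by 1.47-fold to 1.57-fold for RPL4. Relative to the median ribosomal protein gene these were 1.73-fold to 1.81-fold and 1.66-fold to 1.72-fold. RPL14 and RPS13 were among those with higher shares in CER than in PFC, and RPS20, RPS28 and RPS29 among those with higher shares in STR.

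The order of levels was alike in the 6 columns. Over the 61 genes, which are not independent and share sequence copies, Pearson's r of log2 FPKM between columns was between 0.955 and 0.992. The origins within a region gave 0.992, 0.992 and 0.990 in PFC, CER and STR. The lowest value was that of Indian CER with Chinese STR.

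Other genes of the translation apparatus were set beside the ribosomal proteins. Among genes of ribosomal proteins outside the symbol rule, GNB2L1, the scaffold on the head of the small subunit, had log2 ratios of 0.13, -0.07 and 0.02 in PFC, CER and STR, and RPL36AL had 0.15, 0.04 and -0.00. FAU, whose product joins a ubiquitin-like domain to a small-subunit protein, had 484 and 427 FPKM in PFC, 537 and 546 in CER, and 647 and 651 in STR. These 3 genes were within the limit in each region. The 6 other mRNAs with a terminal oligopyrimidine tract, such as NPM1 and TPT1, had medians of 0.17, 0.07 and 0.08, with none past the limit. The 8 elongation genes had medians of 0.15, 0.09 and 0.19, with none past the limit, and EEF1A1, which brings aminoacyl-tRNA to the ribosome, had 957 and 954 FPKM in STR.

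Initiation, assembly and mTOR genes lay nearer the median of all genes in STR, or above it. The 27 initiation genes had median log2 ratios of 0.20, 0.09 and 0.24, and the 17 ribosome assembly genes had 0.23, 0.12 and 0.26. The 10 genes of the mTOR branch had 0.23, 0.14 and 0.45. Mitochondrial ribosomal protein genes, 61 in number, had 0.19, 0.10 and 0.16. No gene of these lists was past the limit in PFC or CER. In STR those past it, all higher in Chinese monkeys, were EIF4G3 among the initiation genes, TSR1 and POLR1B in assembly, RPTOR, EIF4EBP1, LARP1 and TSC1 in the mTOR branch and MRPL42, named after their values were seen. LARP1, which binds the pyrimidine tract of ribosomal protein messages, had 25.4 against 16.9 FPKM there. Against 17.6% of all genes higher in STR, the 4 of 10 in the mTOR branch is a small count without replicates.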

How the data were processed

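Brain RNA was sequenced as single-end reads of 50 bases. Per the study's methods and the labels, read quality was checked by the authors in FastQC, alignment to mmul1 was by TopHat, and Cuffdiff (0.0.5 in the labels) was run per region. The deposited tables hold FPKM, 1 pooled value per gene and origin. They also hold the authors' log2 fold change, test statistic, p-value, q-value and call, which were not used. A line of the STR table that repeats an identifier was left out (1 line). Read numbers, which the study gives as group means, were not used here, and with pooled values no test was made.

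From the FPKM, log2 ratios were computed with a pseudocount of 0.1, which understates the ratio of low genes. Genes with a mean FPKM of at least 1 over the 6 columns were kept, and a fold of 1.5 counted. The count past the fold was tested on simulated data with known folds. Locus starts are given from 1. Locus is the Cuffdiff locus and can span other genes. Reference symbols came from the T2T-MMU8v2.0 RefSeq gene tables by identifier.

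Named genes were the 5 highest and 5 lowest ratios per region, the 10 highest and lowest mean FPKM, stalk genes, paralogues with their main forms, RPL13A and the 5 shares per direction that differed most between regions. Of the other lists, the rule took genes past the fold in several regions, of which there were none outside the marker lists. Genes past it in STR alone were named after their values were seen. A few genes were named for their function. Some named items and 1 list median are not reported here. Members and lists were chosen with earlier results of these data known. Alternatives were pseudocounts, filters, folds, scalings, loci and members left out. Python 3.11.15, numpy 2.4.6, pandas 2.3.3 and matplotlib 3.10.9 were used.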

Additional observations from a re-analysis of the deposited data

How the results depend on the processing

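No paired analysis was possible because the columns carry no replicate numbers, and leaving out a monkey was not run because each column is a pooled value. Of 179 alternative values, 129 were classed as the same as the main value, 39 as moved and 11 as changed in sign. A value could be classed as moved without a change of sign. With the median of all genes subtracted, the median log2 ratio of the origins was -0.024 in PFC and -0.27 in STR. On that scale 5 genes in STR were lower, against 4.83% of all genes. Equal total FPKM gave medians of 1.29, 0.97 and 1.03 in PFC, CER and STR, with 59, 58 and 57 genes higher and 0 lower. The mitochondrial genome made up 39.6% to 62.4% of the total in Chinese and 70.4% to 84.1% in Indian columns. Without it, equal totals gave 0.0065 in PFC and -0.21 in STR, with 5 lower in STR. An equal percentile 75, added after seeing the data, gave -0.03, -0.12 and -0.27, with 5 lower in STR.

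With no filter 1 gene was higher in PFC and 1 in CER. In both regions it was RPL10L, near the floor at 0.183 against 0.0735 FPKM in PFC and 0.0874 against 0 in CER. Without the failed comparisons, also added later, 1 gene was lower in each region. A smaller limit, 0.32 on the log2 scale, gave 5 higher in PFC, and 3 higher and 5 lower in STR. Within that limit lay 88.5% of the ribosomal protein genes in PFC and 86.9% in STR, against 73.1% and 49.7% of all genes. Among genes of 50 FPKM or more the shares were 82.9% and 61.5%. A fold of 2 gave 0 lower in each region. Between regions, subtracting the median of all genes gave 1 higher and 2 lower in CER over PFC and 7 higher in STR over PFC. Equal totals gave 29 higher and 0 lower in CER over PFC, 0 higher in STR over PFC, and 24 higher and 0 lower in CER over STR. A fold of 2 gave 0 and 0 in CER over PFC, 0 higher in STR over PFC and 2 lower in CER over STR. The share of all genes was not computed for the region counts with the median subtracted or at a fold of 2. The summed FPKM had log2 ratios of 0.14, -0.015 and 0.0139 in PFC, CER and STR without the 5 most abundant genes, and 0.17, 0.0045 and 0.0214 without the short RPL13A locus, added later. The range of level in Chinese PFC was 147-fold without that locus and 87.5-fold without the paralogues as well, both added later. The cause was not tested beyond these settings, and depth per library was not used.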
